A study of Homo sapiens with 2 samples.

Results

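The genes described here carry out DNA replication: 51 genes that load the replicative helicase at origins, start it, copy the DNA and supply its precursors, together with cyclin E and the E2F factors that switch many of them on. They were picked by name, with earlier results of these data known. A probe of the array was assigned to a gene when the platform annotation gave it that single gene, and all 51 genes were found, each with 1 probe, among 18377 genes in the table. The cells were K562, an established human leukaemia line driven by the fusion kinase BCR-ABL1. Imatinib, which blocks this kinase, was given to all cells at 2 µM for 6 h. One culture had been grown with erythropoietin (EPO), the hormone that drives red cell formation, and the other was taken as grown without it, because its label names no EPO and the growth protocol gives both conditions. Each culture gave 1 whole-transcript Affymetrix Gene ST array of total RNA, so there are 2 arrays and no replicates, and no difference below has a replicate check or a p-value. In such bulk RNA, fewer cells of a type and less RNA per cell cannot be told apart.

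Replication starts at origins that have been licensed. In late mitosis and G1 the origin recognition complex (ORC), CDC6 and CDT1 load the MCM2 to MCM7 ring onto DNA as an inactive double ring, and geminin (GMNN) blocks CDT1 once S phase has begun. The kinase CDC7 with its partner DBF4, and cyclin E with its kinase, then allow CDC45 and the GINS complex to join the ring, which makes the active helicase. Polymerase alpha with primase lays down primers, the clamp loader RFC places the sliding clamp PCNA, and polymerases delta and epsilon extend the strands. E2F factors bind promoters of many of these genes and raise their transcription towards S phase.

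The deposited values lie around 0 with both signs and were read as log2 deviations of each probe from a baseline, which the sources used here do not describe. On this reading a value of 0 is that baseline, and neither the level of a transcript nor the order of levels between genes can be read from it. The labelled cell type could not be checked either, since its defining markers also stand only as deviations. Each difference subtracts the array without EPO from the array with EPO on the log2 scale, and a gene was called higher or lower at a difference of at least 1, which is 2-fold if the logarithm is to base 2. Across all genes, the standard deviation was 0.13 on the array with EPO and 0.43 on the array without EPO, and the median difference was -0.047.

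Promoters of the genes that the results turn on are shown because CDC6, MCM6, GINS1 and RRM1 differed by at least 2-fold between the arrays, while POLE and E2F1 lay on the other side of 0. Each stretch runs from 170 bases before the RefSeq transcription start to 30 bases after it (GRCh38.p14), written 5′ to 3′ on the gene's own strand. Capitals mark letters of a typical E2F site (TTTCCCGC, TTTCGCGC, TTTGCCGC or TTTGGCGC) and the letters CCAAT, the core of a common promoter box, on either strand, where neighbouring matches may overlap. They lie at chr17:40287709-40287908 on the plus strand for CDC6, chr2:135876414-135876613 on the minus strand for MCM6, chr20:25407503-25407702 on the plus strand for GINS1, chr11:4094515-4094714 on the plus strand for RRM1, chr12:132687313-132687512 on the minus strand for POLE and chr20:33686356-33686555 on the minus strand for E2F1.
CDC6: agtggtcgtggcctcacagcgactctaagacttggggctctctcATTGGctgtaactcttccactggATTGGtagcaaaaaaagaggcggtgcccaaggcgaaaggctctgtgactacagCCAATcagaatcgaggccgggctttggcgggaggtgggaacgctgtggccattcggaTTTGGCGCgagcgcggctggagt
MCM6: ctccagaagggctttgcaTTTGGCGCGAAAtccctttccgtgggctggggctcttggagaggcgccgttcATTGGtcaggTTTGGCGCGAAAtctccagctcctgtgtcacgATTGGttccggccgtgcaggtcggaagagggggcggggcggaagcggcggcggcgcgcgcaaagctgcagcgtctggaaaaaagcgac
GINS1: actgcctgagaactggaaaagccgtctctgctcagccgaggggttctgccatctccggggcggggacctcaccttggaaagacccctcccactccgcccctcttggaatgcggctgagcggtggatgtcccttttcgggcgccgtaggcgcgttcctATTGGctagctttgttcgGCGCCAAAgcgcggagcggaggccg
RRM1: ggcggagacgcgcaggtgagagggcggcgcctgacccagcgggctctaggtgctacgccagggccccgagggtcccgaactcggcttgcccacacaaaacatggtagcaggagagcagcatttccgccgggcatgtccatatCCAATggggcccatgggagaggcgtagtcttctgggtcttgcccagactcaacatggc
POLE: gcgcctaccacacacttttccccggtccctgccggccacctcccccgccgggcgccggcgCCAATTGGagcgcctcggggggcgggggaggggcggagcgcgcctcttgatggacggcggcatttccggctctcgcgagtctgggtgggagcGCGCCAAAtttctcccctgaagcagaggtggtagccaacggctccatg
E2F1: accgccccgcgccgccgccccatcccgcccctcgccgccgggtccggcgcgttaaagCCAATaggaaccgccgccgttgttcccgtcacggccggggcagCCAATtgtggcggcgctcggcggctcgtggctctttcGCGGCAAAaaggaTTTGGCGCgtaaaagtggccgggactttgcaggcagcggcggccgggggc

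MCM6 held 2 copies of the 12 letters TTTGGCGCGAAA, in which a TTTGGCGC on the gene's strand overlaps a TTTCGCGC on the other. Of 35116 windows of 300 bases in the RefSeq promoter table (250 before and 50 after a start), 4 held these 12 letters and 1, that of MCM6, held them more than once. The 12 letters were searched for after the MCM6 sequence had been seen. CDC6 held TTTGGCGC from base 8 after its start, and E2F1 held 2 E2F matches, from bases -33 and -20 relative to its start. RRM1 held CCAAT alone.

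Across the group, 45 of the 51 replication genes had a higher value with EPO than without it and 6 had a lower one. The share higher was 88.2%, against 45.4% of all genes and 78.6% of the cellular machinery genes described below. At least 2-fold higher with EPO were 7 genes, CDC6, MCM6, RRM1, GINS2, RFC1, GINS1 and CDC7, and 0 were 2-fold lower. Among all genes, 6.19% were at least 2-fold higher and 0.898% at least 2-fold lower, so 13.7% of the replication genes stood against 6.19% of all genes. Their median difference was 0.49, against -0.047 for all genes. At 1.5-fold, 21 were higher and 0 lower, where 18.1% and 4.65% of all genes were, and at 3-fold 1 was higher and 0 lower, where 0.365% and 0.37% of all genes were. The nearest genes on either side of the 2-fold line were CDC7 at 1.03 and ORC5 at 0.97.

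The comparison with all genes depended on which genes served as reference. A class of 243 genes of cellular machinery (found by symbol among the nuclear pore, RNA polymerase II, the spliceosome, the proteasome, the respiratory chain and the mitochondrial ribosome) had a median difference of 0.48, and 15.6% of them were at least 2-fold higher with EPO. The replication genes thus had a median close to that of the machinery class, at 0.49 against 0.48, and a share past 2-fold, 13.7%, close to its 15.6%. In contrast, 454 genes of families that are silent in most cells, such as olfactory receptors, had a median of -0.33. With the machinery median subtracted, 26 replication genes lay above 0 and 25 below, and 2 stayed at least 2-fold higher, CDC6 and MCM6, where 0.664% of all genes did. With the silent median subtracted, 49 lay above 0, with POLE and POLD1 the exceptions, and 18 were at least 2-fold higher, where 15.1% of all genes were. What sets the gap between these classes was not tested.

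**Figure D1:**
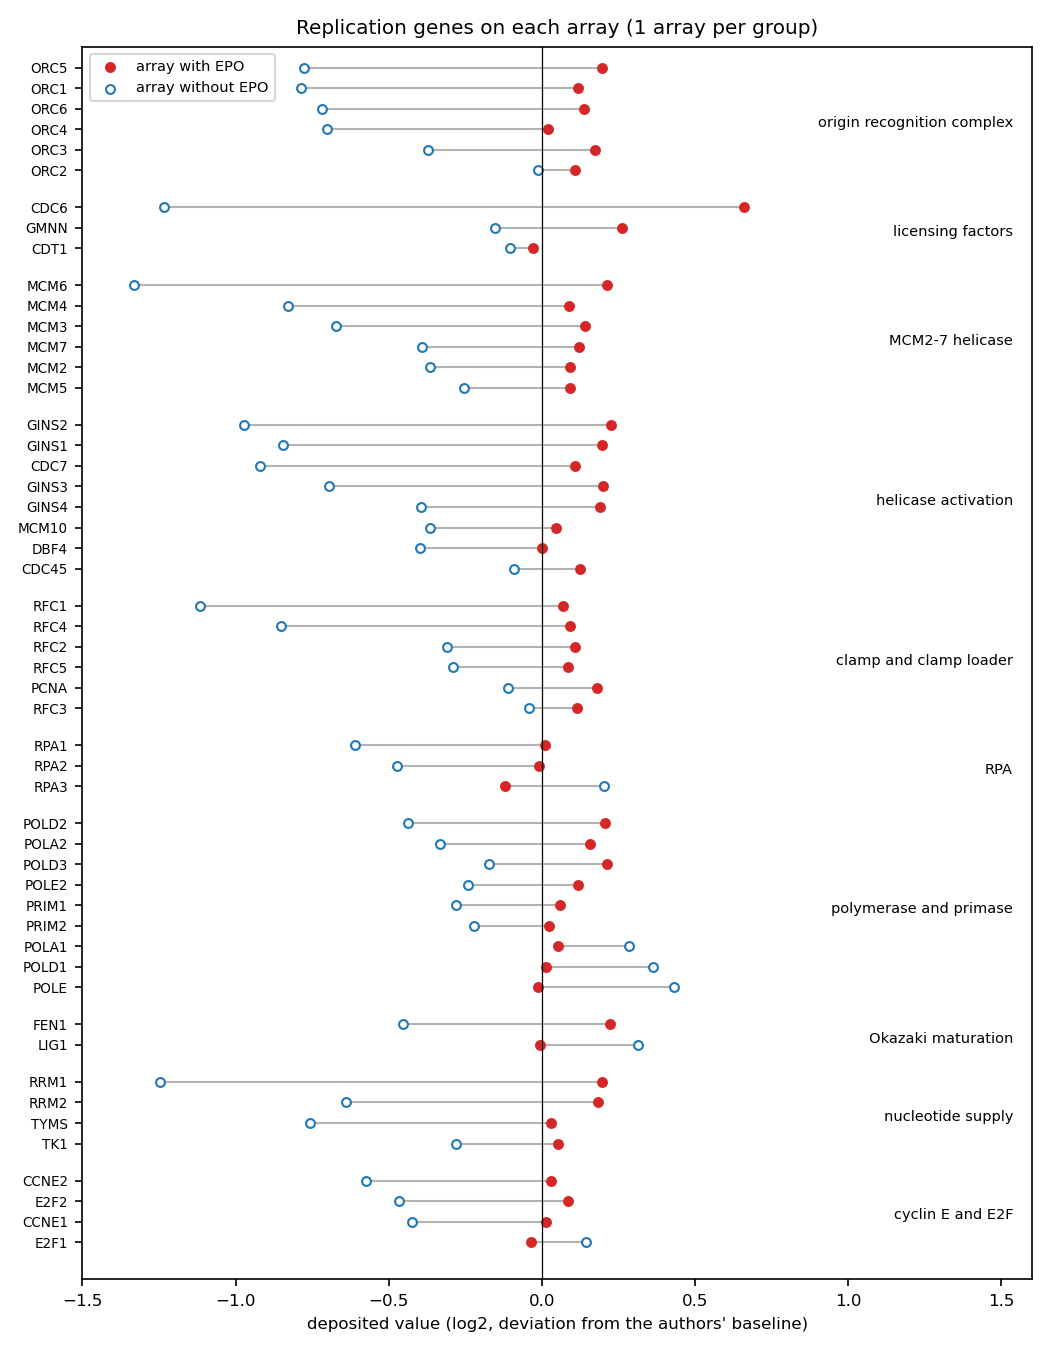
The plot of values by array shows each of the 51 genes on its own row, grouped by role, with the deposited log2 deviation from the authors' baseline on the x axis; filled points are the array with EPO, open points the array without EPO, and grey lines join them. The open points span -1.33 to 0.43 and the filled points -0.12 to 0.66, and in 6 rows the open point lies to the right.

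The array without EPO held the wider spread of replication genes. Without EPO, 45 of 51 lay below the baseline, with a median of -0.40 and a range from -1.33 to 0.43. This was 88.2%, against 45.2% of all genes and 79.0% of the machinery genes. On the array with EPO, 44 of 51 lay above the baseline, with a median of 0.11 and a range from -0.12 to 0.66. That share was 86.3%, against 49.3% of all genes and 76.1% of the machinery genes. In 45 of 51 the value without EPO was farther from the baseline than the value with EPO, but this was also so for 82.6% of the other genes. A value above the baseline with EPO together with one below it without EPO was found in 42 of 51 replication genes (82.4%) and in 38.7% of the other genes. It was also found in 73.7% of the machinery genes in 82.1% of other genes of the replication pathway and in 96.4% of mitosis genes.

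**Figure D2:**
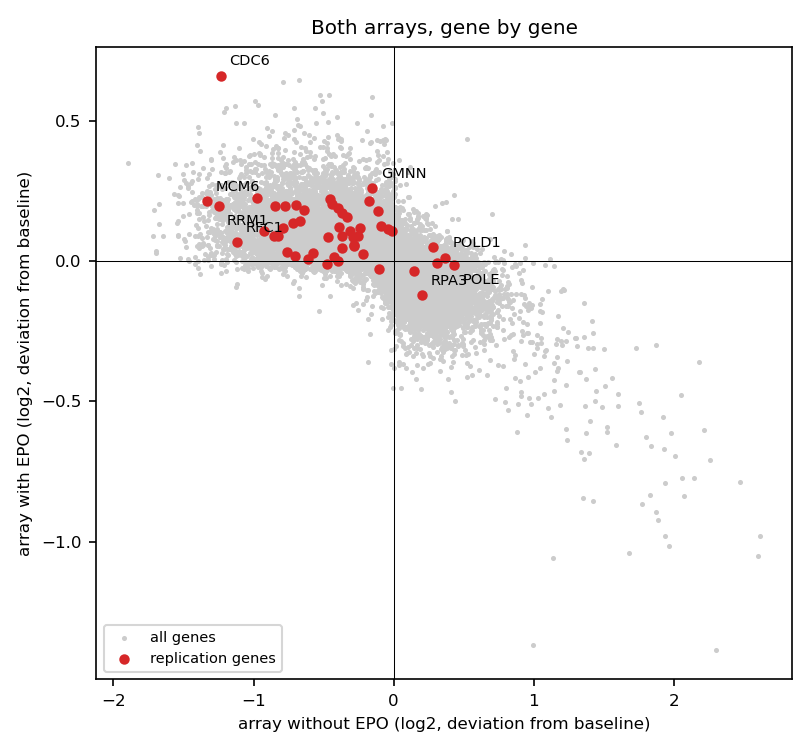
The plot of one array against the other places every gene by its deviation from the baseline without EPO (x axis, log2) and with EPO (y axis, log2), with all 18377 genes in grey and the 51 replication genes in red. CDC6, at 0.66 on the y axis, stands above every other gene, and 42 of the 51 red points lie in the upper left part, above 0 on the y axis and below 0 on the x axis.

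CDC6, the ATPase that joins ORC at origins and recruits the MCM ring, had the largest difference of the group. Its value was 0.66 with EPO and -1.23 without EPO, a difference of 1.89 (3.72-fold), the fifth largest of all 18377 genes. On the array with EPO it was the gene farthest above the baseline of all 18377 genes, followed by LTV1, a ribosome assembly factor, at 0.65 and the DNA repair enzyme TDP2 at 0.64. On the array without EPO it was at rank 183 from the lowest. It lay above all 243 machinery genes in its difference. With the machinery median subtracted it kept a difference of 1.41.

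The other licensing factors stood far from CDC6. CDT1, which brings the MCM ring to ORC and CDC6, had -0.029 with EPO and -0.10 without EPO, a difference of 0.074. Its inhibitor GMNN had 0.26 and -0.15, a difference of 0.41 (1.33-fold). CDC6 and CDT1 act together in loading, and here the first differed most of the group whereas the second was the smallest of the positive differences.

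All 6 ORC subunits were higher with EPO as deposited, none of them by 2-fold, and their median was 0.79; with the machinery median subtracted ORC2 lay below 0 and the median was 0.31. ORC5 had 0.20 with EPO and -0.78 without EPO, a difference of 0.97 (1.96-fold). ORC1, the large subunit whose level oscillates in the cell cycle, had 0.12 and -0.79, a difference of 0.90. ORC6 had 0.14 and -0.72, a difference of 0.85. These values form a band just under 2-fold, below which ORC4 stood at 0.72 (0.020 with EPO, -0.70 without EPO) and ORC3 at 0.55 (0.17 and -0.37). ORC2, which forms the core of the complex with ORC3, ORC4 and ORC5, was nearly level, with 0.11 and -0.013, a difference of 0.12.

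In the MCM2 to MCM7 ring, whose 6 subunits act in equal numbers, every gene was higher with EPO as deposited, by unequal amounts from 0.34 to 1.55 with a median of 0.66, and MCM2 and MCM5 lay below 0 once the machinery median was subtracted. MCM6 had 0.21 with EPO and -1.33 without EPO, a difference of 1.55 (2.92-fold), at rank 88 of all genes. MCM4 had 0.090 and -0.83, a difference of 0.92 (1.89-fold), and MCM3 had 0.14 and -0.67, a difference of 0.81. As deposited, MCM6 was the only ring subunit past 2-fold, and MCM4, which sits next to it in the ring, came closest. MCM7 had 0.12 and -0.39, a difference of 0.51, MCM2 had 0.090 and -0.37, a difference of 0.46, and MCM5 had 0.091 and -0.25, a difference of 0.34. With EPO the ring genes lay close together, between 0.090 and 0.21, and without EPO they were spread from -1.33 to -0.25. Over all genes the standard deviation was also smaller on the array with EPO, 0.13 against 0.43 without EPO.

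Genes that turn the loaded ring into a moving helicase held 3 of the 7 genes past 2-fold. These were 3 of 8 genes (37.5%), against 6.19% of all genes and 15.6% of the machinery genes. The median of the 8 was 0.74, or 0.26 with the machinery median subtracted, and 0 of them were then past 2-fold. GINS is a complex of 4 subunits that holds CDC45 on the ring. GINS2 had 0.23 with EPO and -0.97 without EPO, a difference of 1.20 (2.30-fold), and GINS1 had 0.20 and -0.85, a difference of 1.04 (2.06-fold). GINS3 had 0.20 and -0.70, a difference of 0.89, and GINS4 had 0.19 and -0.40, a difference of 0.58. On the array with EPO the 4 subunits lay between 0.19 and 0.23, and on the array without EPO they ran from -0.97 to -0.40. The whole array with EPO was also narrower, with a standard deviation over all genes of 0.13 against 0.43 without EPO. All 4 GINS subunits stayed above 0 with the machinery median subtracted, between 0.10 and 0.72.

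CDC7, the kinase that phosphorylates the MCM ring, had 0.11 with EPO and -0.92 without EPO, a difference of 1.03 (2.04-fold). DBF4, the subunit that activates it, had -0.00095 and -0.40, a difference of 0.40 (1.32-fold). CDC45 had 0.13 and -0.092, a difference of 0.22, the smallest of the helicase activation genes. MCM10, which binds the assembled helicase, had 0.046 and -0.37, a difference of 0.41. Within this step the kinase and GINS stood above DBF4, CDC45 and MCM10, and these last 3 lay below 0 with the machinery median subtracted.

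The clamp PCNA, the ring that tethers polymerases to DNA, had 0.18 with EPO and -0.11 without EPO, a difference of 0.29 (1.22-fold). Its loader is made of 5 subunits, of which RFC1 is the largest and particular to the replicative loader. RFC1 had 0.067 and -1.12, a difference of 1.18 (2.27-fold), and RFC4 had 0.091 and -0.85, a difference of 0.94 (1.92-fold). RFC2 had 0.11 and -0.31, a difference of 0.42, RFC5 had 0.085 and -0.29, a difference of 0.38, and RFC3 had 0.12 and -0.041, a difference of 0.16. The loader therefore split into RFC1 and RFC4, near or past 2-fold, and the other 3 subunits, at 0.42 or less, which lay below 0 with the machinery median subtracted, as PCNA did.

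Replication protein A coats single-stranded DNA as a trimer. The large subunit RPA1 had 0.0092 with EPO and -0.61 without EPO, a difference of 0.62, and RPA2 had -0.010 and -0.47, a difference of 0.46. The small subunit RPA3 had -0.12 and 0.20, a difference of -0.33 (1.25-fold lower), and had the lowest value of the 51 genes on the array with EPO. It lay above 0 with the silent median subtracted, and RPA2 below 0 with the machinery median subtracted.

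Of the 9 polymerase and primase genes, the 3 that encode the catalytic subunits of polymerases alpha, delta and epsilon were lower with EPO and the other 6 were higher as deposited, with none past 2-fold. POLE, which makes the leading strand, had -0.013 with EPO and 0.43 without EPO, a difference of -0.44 (1.36-fold lower), the lowest of the 51. POLD1, which makes most of the lagging strand, had 0.012 and 0.36, a difference of -0.35, and POLA1, which extends primers, had 0.052 and 0.28, a difference of -0.23. All 3 lay above the baseline without EPO and close to it with EPO. This split by role was noticed after the values had been seen.

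Their partner subunits lay on the other side of 0. POLE2 had 0.12 with EPO and -0.24 without EPO, a difference of 0.36. POLD2 had 0.21 and -0.44, a difference of 0.64, and POLD3 had 0.21 and -0.17, a difference of 0.39. POLA2 had 0.16 and -0.33, a difference of 0.49. The primase subunits, which make the RNA primer, stood at 0.34 for PRIM1 (0.058 with EPO, -0.28 without EPO) and 0.24 for PRIM2 (0.024 and -0.22). The medians were -0.35 for the 3 catalytic genes and 0.37 for the other 6. With the machinery median subtracted POLD2 and POLA2 stayed above 0, at 0.16 and 0.0066, while POLE2, POLD3, PRIM1 and PRIM2 lay below it. With the silent median subtracted POLA1 joined the genes above 0, while POLD1 stood at -0.024 and POLE at -0.12. The median of the 3 catalytic genes was then -0.024, and it was -0.83 with the machinery median subtracted.

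The enzymes that finish Okazaki fragments also split. FEN1, the nuclease that trims the flap, had 0.22 with EPO and -0.45 without EPO, a difference of 0.67 (1.59-fold). LIG1, the ligase that seals the nick, had -0.0062 and 0.31, a difference of -0.32 (1.25-fold lower), and it turned positive with the silent median subtracted.

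**Figure D3:**
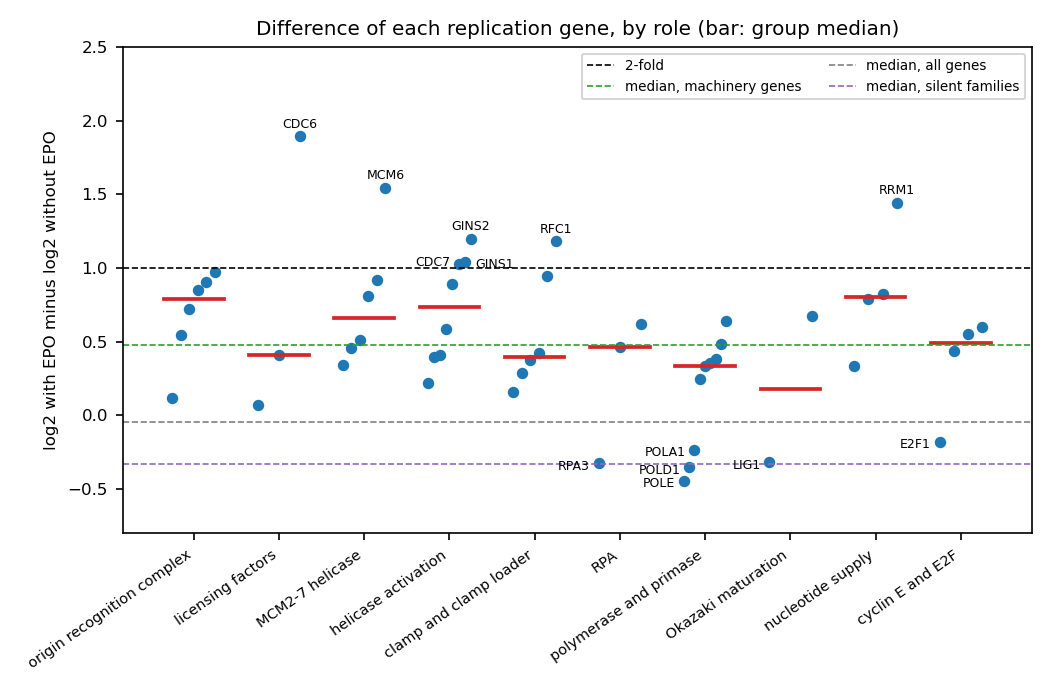
The plot of differences by role gives each gene as a point (y axis, log2 with EPO minus log2 without EPO) in 10 role groups, with a red bar at the group median and dashed lines at 2-fold and at the medians of all genes, machinery genes and silent families. Named points are the 7 genes at 1 or above and the 6 genes below 0; RPA3, POLA1, POLD1, POLE, LIG1 and E2F1 are the latter.

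Nucleotide supply had the highest role median, 0.81, and all 4 genes were higher with EPO as deposited, of which TK1 lay below 0 with the machinery median subtracted. Ribonucleotide reductase makes deoxyribonucleotides from a large subunit, RRM1, and a small subunit, RRM2. RRM1 had 0.20 with EPO and -1.25 without EPO, a difference of 1.44 (2.72-fold), at rank 142 of all genes. RRM2 had 0.18 and -0.64, a difference of 0.82 (1.77-fold). RRM2 is the subunit whose level follows S phase more closely, and here it differed less than RRM1. Thymidylate synthase, TYMS, had 0.031 and -0.76, a difference of 0.79, and thymidine kinase, TK1, which salvages thymidine, had 0.053 and -0.28, a difference of 0.33.

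Of the 4 upstream regulators, 3 were higher with EPO as deposited and none reached 2-fold. CCNE2 had 0.029 with EPO and -0.57 without EPO, a difference of 0.60, and CCNE1 had 0.014 and -0.42, a difference of 0.44. Both encode E-type cyclins, which drive entry into S phase. E2F2 had 0.085 and -0.47, a difference of 0.55, whereas E2F1 had -0.036 and 0.14, a difference of -0.18 (1.13-fold lower). These activator E2F factors lay on opposite sides of 0 as deposited, E2F1 turned positive with the silent median subtracted, and neither reached 2-fold.

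**Figure D4:**
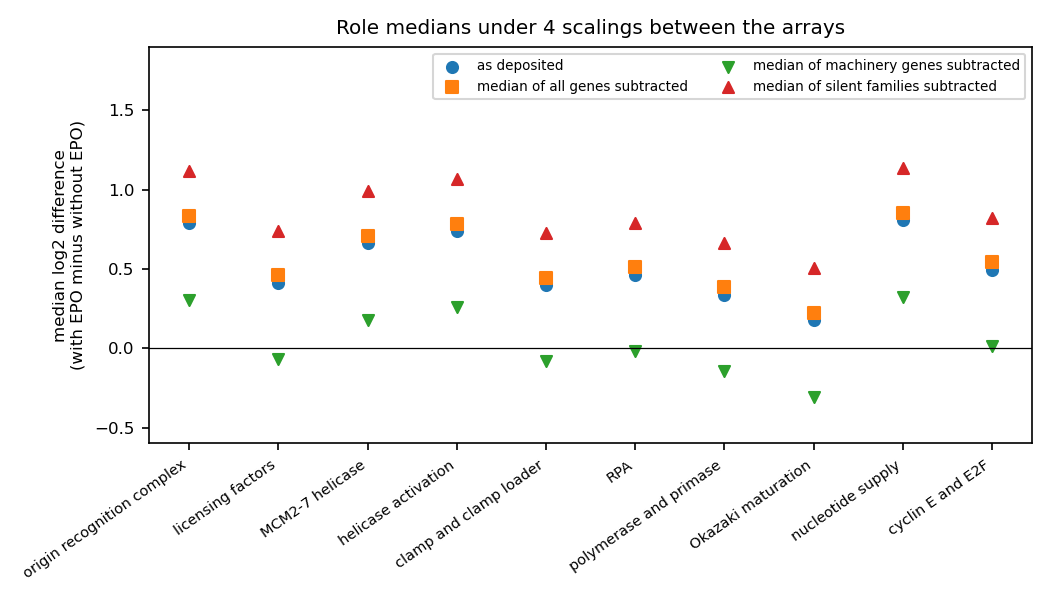
The plot of role medians shows the median log2 difference (y axis) of the 10 role groups as deposited and after subtracting the median of all genes, machinery genes or silent families. ORC, the MCM ring, helicase activation and nucleotide supply keep a median above 0 in all 4. Licensing factors, clamp and loader, RPA, polymerases and Okazaki maturation fall below 0 with the machinery median subtracted. The cyclin E and E2F group is then nearly at 0, with a median of 0.013 and 2 of its 4 genes below 0, as is RPA at -0.018.

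E2F-like letters were frequent in these promoters on both sides of 0. Of the 51 genes, 44 had at least 1 window in the RefSeq table, and 22 of the 44 held 1 of the 4 spellings on either strand, against 5.51% of 14210 measured genes with a window and 3.31% of all 35116 windows. CCAAT was found in 25 of the 44 (56.8%), against 42.2% of the measured genes and 34.6% of all windows. E2F letters stood in 5 of the 7 genes at least 2-fold higher with EPO, in 13 of 32 genes above 0 and within 2-fold, and in 4 of 5 genes below 0 (POLE, POLA1, LIG1 and E2F1, but not POLD1). Replication genes with the letters had a median difference of 0.50 and those without them 0.53. Among the 14166 other measured genes with a window, the 761 with the letters had a median of 0.17 and those without them -0.027. What sets this difference was not tested. A match describes letters in a window and is not a measured site, and genes with several start sites had several windows.

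Genes of the same pathway outside the 51 were taken from 8 lists, with 117 of 122 genes measured. With EPO, 24 of them (20.5%) stood at least 2-fold higher and 0 lower, where 6.19% of all genes and 15.6% of the machinery genes were higher and 0.898% of all genes lower, and their median was 0.58. With the machinery median subtracted 2 stayed at least 2-fold higher, DCTD and ASF1A, and the median was 0.096. Among other nucleotide supply genes 9 of 21 were past 2-fold, with a median of 0.87. The largest were the deaminase DCTD, which feeds TYMS, at 1.75, the p53-induced reductase subunit RRM2B at 1.46 and the purine synthesis enzyme PAICS at 1.35. PPAT, SHMT1, ADSL, DGUOK, DCK and GART were the other 6, between 1.05 and 1.32; they serve purine synthesis, the folate cycle and nucleoside salvage.

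Fork and firing factors and the other polymerase and maturation genes each had a share past 2-fold near the 6.19% of all genes. The first had 1 of 14 past 2-fold, the checkpoint mediator CLSPN at 1.08, with MCMBP, which binds MCM subunits, at 0.97 and WDHD1 at 0.95. RECQL4, a helicase needed for origin firing, stood at -0.43. The second had 1 of 15, the topoisomerase TOP2B at 1.08, followed by the RNase H2 subunits RNASEH2A at 0.81 and RNASEH2B at 0.78. The remaining RNase H2 subunit, RNASEH2C, stood at -0.40 and was the only gene of the 15 below 0. The accessory epsilon subunits POLE3 and POLE4 stood at 0.56 and 0.12, and the delta subunit POLD4 at 0.34, all above 0 as deposited.

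Among alternative clamp loaders and PCNA regulators 2 of 14 (14.3%) were at least 2-fold higher. The share was 6.19% among all genes and 15.6% among machinery genes. Past 2-fold were the PCNA deubiquitinase USP1 at 1.25 and the loader subunit CHTF8 at 1.24. Its partner CHTF18 stood at -0.88 and DSCC1, of the same loader, at 0.99. The CDK inhibitor CDKN1A, which binds PCNA, stood at -0.68. Chromatin assembly genes had 2 of 11 (18.2%), the histone chaperones ASF1A at 1.56 and CHAF1B at 1.08, next to ASF1B at 0.68. With the machinery median subtracted only ASF1A of these lists stayed at least 2-fold higher, where 0.664% of all genes did. The histone mRNA binding protein SLBP stood at 0.013.

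Other E2F, RB and S phase kinase genes had 3 of 21 (14.3%) at least 2-fold higher. Among all genes 6.19% were, and among machinery genes 15.6%. These 3 were the repressor E2F7 at 1.18, the phosphatase CDC25A at 1.13 and the E2F partner TFDP1 at 1.13. The checkpoint genes had 1 of 9 (11.1%), the clamp loader RAD17 at 1.19, with the kinase WEE1 at 0.80 and CHEK1 at 0.74. In the same list 2 genes lay below 0, HUS1 at -0.27 and RAD9A at -0.055. Cohesin, loaded before and closed during S phase, had 5 of 12 (41.7%) past 2-fold. Its median was 0.93, or 0.45 with the machinery median subtracted. The largest were the acetyltransferase ESCO1 at 1.39, the kleisin RAD21 at 1.37 and the release factor WAPL at 1.14. The other 2 past 2-fold were SMC3 and SMC1A, at 1.10 and 1.04. With the machinery median subtracted the E2F, checkpoint and cohesin lists kept no gene past 2-fold, where 0.664% of all genes stayed higher.

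Genes of neighbouring cell cycle steps gave other medians, with no test of the difference possible. For 28 mitosis genes the median was 0.79, with 7 (25%) at least 2-fold higher and 0 lower. Among all genes 6.19% were higher and 0.898% lower, and among machinery genes 15.6% were higher. The largest were CDK1 at 1.55, KIF11 at 1.40 and CCNB2 at 1.23. With the machinery median subtracted 1 mitosis gene stayed at least 2-fold higher, where 0.664% of all genes did. For 29 replication-dependent histone genes, whose mRNAs are made in S phase, the median was -0.42. Of these 29 genes, 7 were at least 2-fold lower and 0 higher, where 0.898% of all genes were lower and 6.19% higher. The lowest were H2AC4 at -2.50, H4C4 at -2.28 and H4C2 at -2.08. Histone genes share near-identical sequence, so their probes may not tell copies apart. The medians with the machinery median subtracted were 0.30 for mitosis, 0.0066 for the replication genes and -0.90 for the histones, and with the silent median subtracted 1.11, 0.82 and -0.089.

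Markers of other cell types were given the same comparison. The medians were -0.21 for 11 lymphoid genes, -0.27 for 12 granulocyte and monocyte genes and -0.084 for 12 epithelial and stromal genes. In each list 1 gene was at least 2-fold higher, PTPRC at 1.10, LYZ at 1.05 and EPCAM at 1.25. These were 9.1%, 8.3% and 8.3% of their lists, near the 6.19% of all genes. CEBPA, at -1.07, was at least 2-fold lower, where 0.898% of all genes were. All 3 medians turned positive with the silent median subtracted. The erythroid and K562 list had a median of 0.28 over 10 measured genes, or -0.20 with the machinery median subtracted, with the transferrin receptor TFRC at 1.02. Their part in the differences of the replication genes was not tested.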

How the data were processed

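The authors deposited 1 table of logarithmic values, read here as log2, for 28869 probes on 2 arrays. How they corrected the background, summarised and normalized the signals, and which logarithm they took, is stated by none of the sources used here. The values were read as centred per probe because the array medians lay near 0 (-0.0089 with EPO and 0.052 without EPO), both signs occurred and 631 probes (2.19%) held equal and opposite values within 1e-05; this is an inference. The other probes did not hold such values, so the baseline was not the mean of these 2 arrays alone. A baseline shared by both arrays cancels in the difference between them.

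Of the probes, 19310 had exactly 1 gene in the platform annotation, and 19279 of these took their current symbol from RefSeq (GRCh38.p14) by Entrez ID. Probes of a gene were averaged, giving 18377 genes. Each of the 51 replication genes had 1 probe. The number of arrays limits the precision, and no significance test was run. The members, the lists and the reference classes were chosen with earlier results of these data known. All 51 members are reported. Of pathway lists, genes past 2-fold and up to 3 with the largest differences are reported, and of mitosis, histone and marker lists up to 3. Further genes were chosen after their values were seen (RECQL4, POLE3, POLE4, POLD4, RNASEH2C, SLBP, CHTF18, CDKN1A, HUS1, RAD9A, PDS5B and STAG1). Alternatives were other scalings, fold thresholds, probe rules and the mean. On simulated, noise-free data with 200 of 18377 genes changed, the averaging and calling steps recovered 134 of 134 genes set past 2-fold and called 0 others, which checks the code only. Python 3.11.15, NumPy 2.4.6 and pandas 2.3.3 were used.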

Additional observations from a re-analysis of the deposited data

How the results depend on the processing

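As deposited, 7 replication genes passed 2-fold upwards. That count was 2 with the machinery median subtracted, 18 with the silent median subtracted, 21 at 1.5-fold, 1 at 3-fold and 17 if the values are natural logarithms (14.4% of all genes), a reading added after the data were seen. No replication gene was at least 2-fold lower under any of these. For the other pathway genes the 24 higher became 2, 50 and, at 1.5-fold, 57, where 0.664%, 15.1% and 18.1% of all genes were higher. The 0 lower became 2 with the machinery median subtracted and 2 at 1.5-fold, where 4.65% of all genes were lower at 1.5-fold. The share of all genes lower with the machinery median subtracted was not computed. With the machinery median subtracted the medians were 0.0066 for the replication genes, 0.096 for the other pathway genes, 0.31 for ORC, -0.069 for licensing factors, 0.18 for the MCM ring, 0.26 for helicase activation, -0.083 for clamp and loader, -0.018 for RPA, -0.14 for polymerases, -0.30 for Okazaki maturation, 0.32 for nucleotide supply and 0.013 for cyclin E and E2F. With the silent median subtracted they were 0.82, 0.91, 1.11, 0.74, 0.99, 1.07, 0.73, 0.79, 0.67, 0.50, 1.13 and 0.82 in the same order. These shifts follow from the amounts subtracted. The mean in place of the median gave 0.79 for licensing factors, 0.25 for RPA and 0.16 for polymerases. Subtracting the median of all genes, the rules for genes with several probes and probes with several genes moved none of these medians or counts by more than 1.5 times, and the probe rules could not move the replication genes, which have 1 probe each. The filter on dim genes was not run, because the values carry no level. No paired analysis was possible because each group has 1 array. Signal over background is unknown.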

Other observations

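Cohesin was the one list of the pathway in which every measured gene, 12 of 12, stayed above 0 with the machinery median subtracted as well as with the silent median subtracted, with a median of 0.45 and 1.26. Its lowest members as deposited were PDS5B at 0.50 and STAG1 at 0.52. Among the 10 role groups of the replication genes none did so, while the 4 GINS subunits, taken alone after their values had been seen, did.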
